A study of Homo sapiens with 12 samples.

Results

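Ribosomal protein pseudogenes that received reads in HK-2 cells are described here. They were chosen by 3 criteria in the deposited count table: a biotype containing processed_pseudogene, a symbol made of a ribosomal protein symbol followed by P and a number, and a sum of at least 100 counts over the 12 libraries. Of 58735 genes in the table, 1058 met the first 2 criteria. Of these, 523 had no count in any library, 461 had 1 to 99 counts, and 74 had 100 or more. Each of the 74 was set beside its parent, the ribosomal protein gene named in its symbol before the last P, and all 41 parents were in the table. The 74 were selected on their summed counts, so the level itself is a description and was not tested.

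HK-2 is an immortalized line of human proximal tubular cells. RNA was sequenced from 4 groups of 3 samples: control cells treated with water, and cells treated with 75 mg I/mL iohexol (an iodinated contrast agent), 5 μM cisplatin (a platinum drug) or 4 mM vancomycin (a glycopeptide antibiotic) for 48 h. The 3 control samples served all 3 comparisons, so these comparisons are not independent of each other. The renal epithelial markers PAX8, KRT8 and KRT18 and the brush border enzymes GGT1 and MME were present in every library. Other markers were low, with 3 to 79 counts per library for ANPEP, also a brush border enzyme. PAX2 had 0 to 85 counts per library, CUBN 7 to 33 and AQP1 1 to 15. The proximal tubule receptor LRP2 and the transporters SLC22A6 and SLC22A8 had at most 3 counts in any library. HK-2 is 1 line, and p-values measured only the spread between these samples, since nothing states that replicates were separate cultures.

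Ribosomal proteins build the large (RPL) and small (RPS) subunits of the ribosome, and their mRNAs are short, spliced and among the most abundant in dividing cells. Such mRNAs have been copied back into the genome many times by the reverse transcriptase of LINE-1 elements. The copies lack introns, usually lack a promoter of their own, and are called processed pseudogenes. Because a young copy keeps almost the exact sequence of its parent mRNA, a short read from the parent can often be placed on the copy as well. Counts of a pseudogene can therefore hold reads of the parent, and counting programs differ in what they do with them. The options used for these counts are not given in the sources used here.

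Of the 74 pseudogenes, 52 derived from large-subunit and 22 from small-subunit genes. RPL23A had the most copies in the list (5), followed by RPS3A (4). Each pseudogene was compared with the annotated transcripts of all other genes in GENCODE 29. The median pseudogene had 53.1% of its 50-base windows in a transcript of another gene, and 18.6% of its 100-base windows. In 5 pseudogenes every 50-base window occurred elsewhere (RPS28P7, RPL39P3, RPL21P16, RPL41P1 and RPL41P5), yet these 5 held 24814 counts, 8.92% of the counts of all 74. In RPS3AP38 and RPL7AP10 no such window occurred elsewhere. The best alignment with a parent transcript had a median identity of 98.1%, and the lowest was 77.8% in RPL13P5.

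Stretches of 120 bases show how far single copies can be told from their parents. Each stretch lies in the coding part of the parent and, among the gapless stretches there, is the first with the most differences. The pseudogene positions are on GRCh38 from GENCODE 29, the sequences run 5′ to 3′ on the pseudogene's own strand, and capitals mark the bases at which the pair differs. RPS28P7 (chr11:82689559-82689678, plus strand) is shown because it is identical to bases 1 to 120 of the RPS28 coding sequence, so no read inside this stretch could be assigned to 1 of the 2 genes.
RPS28P7: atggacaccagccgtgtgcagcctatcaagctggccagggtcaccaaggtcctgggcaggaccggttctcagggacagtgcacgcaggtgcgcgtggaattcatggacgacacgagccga
RPS28: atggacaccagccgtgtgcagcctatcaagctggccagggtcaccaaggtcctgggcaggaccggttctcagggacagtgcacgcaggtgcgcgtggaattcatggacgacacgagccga

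RPL13AP20 (chr12:12875682-12875801, plus strand, 11 differences over coding bases 184 to 303 of RPL13A) and RPL12P14 (chr1:15793113-15793232, plus strand, 10 differences over coding bases 322 to 441 of RPL12) are shown because their changes ran against those of the parent. Reads inside these stretches can carry several differences, but the stretches were picked for the most differences. Over the whole copy, 26.8% of the 50-base windows of RPL13AP20 and 23.6% of those of RPL12P14 occurred in another gene. Whether reads of other genes were counted in these copies was not tested.
RPL13AP20: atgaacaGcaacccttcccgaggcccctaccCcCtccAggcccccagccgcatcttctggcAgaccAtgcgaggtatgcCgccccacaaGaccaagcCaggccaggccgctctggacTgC
RPL13A: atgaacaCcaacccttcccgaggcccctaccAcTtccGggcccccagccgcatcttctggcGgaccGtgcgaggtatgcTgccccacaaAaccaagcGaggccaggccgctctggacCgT
RPL12P14: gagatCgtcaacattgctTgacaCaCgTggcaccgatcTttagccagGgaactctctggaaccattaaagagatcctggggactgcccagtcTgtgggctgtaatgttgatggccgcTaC
RPL12: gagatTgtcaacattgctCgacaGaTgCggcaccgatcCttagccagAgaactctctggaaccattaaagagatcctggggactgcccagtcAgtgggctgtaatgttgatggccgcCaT

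RPL24P4 (chr6:42956543-42956662, minus strand, 3 differences over coding bases 67 to 186 of RPL24) and RPS10P3 (chr9:88016559-88016678, plus strand, 7 differences over coding bases 260 to 379 of RPS10) are shown as the copies with steep rises with vancomycin. RPS27AP16 (chr16:61055514-61055633, minus strand, 2 differences over coding bases 283 to 402 of RPS27A) is shown because it was lower with all 3 drugs. Its call with iohexol did not hold under several alternatives.
RPL24P4: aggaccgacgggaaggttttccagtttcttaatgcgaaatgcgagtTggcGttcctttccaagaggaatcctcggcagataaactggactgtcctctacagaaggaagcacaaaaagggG
RPL24: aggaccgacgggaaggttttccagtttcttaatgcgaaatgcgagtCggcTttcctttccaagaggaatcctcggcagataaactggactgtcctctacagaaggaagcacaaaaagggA
RPS10P3: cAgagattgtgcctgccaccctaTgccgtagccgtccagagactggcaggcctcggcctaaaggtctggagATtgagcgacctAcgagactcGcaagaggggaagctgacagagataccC
RPS10: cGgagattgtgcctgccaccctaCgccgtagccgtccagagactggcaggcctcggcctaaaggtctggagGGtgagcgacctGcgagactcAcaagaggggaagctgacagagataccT
RPS27AP16: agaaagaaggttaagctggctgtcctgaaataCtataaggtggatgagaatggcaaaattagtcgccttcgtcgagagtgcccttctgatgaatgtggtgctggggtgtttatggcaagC
RPS27A: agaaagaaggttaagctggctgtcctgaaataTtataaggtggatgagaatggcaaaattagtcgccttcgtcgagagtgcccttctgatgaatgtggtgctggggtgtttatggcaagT

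Total counts per library were between 14057282 and 18177109, and 3 counts corresponded to 0.165 to 0.213 CPM (counts scaled to library size). The RNAs without a poly(A) tail RN7SL1, RN7SL2, RN7SL3, RN7SK, RMRP and RPPH1 together had 8 to 99 counts in the control, iohexol and cisplatin libraries and 2457 to 2618 in the vancomycin libraries, and whether this bears on the pseudogenes was not tested. Iohexol sample 3 and control sample 1 stood somewhat apart from the other samples of their groups, as did vancomycin sample 2 to a lesser degree.

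Summed over all 74, the pseudogenes were lowest with iohexol and highest with vancomycin. In the control libraries 0.126% to 0.136% of all counts fell on them. The share was lower in each iohexol library (0.0895% to 0.107%), slightly higher in each cisplatin library (0.137% to 0.140%) and highest in the vancomycin libraries (0.204% to 0.231%). No group overlapped the controls in this share, but the direction with cisplatin turned with the scaling. On the TMM scale (trimmed mean of M-values, which weighs how most genes compare between libraries) used for all CPM below, the sums were 1212 to 1248 CPM with cisplatin and 1294 to 1415 CPM in the controls, so that every cisplatin library lay below the controls. On that scale the iohexol libraries had 875 to 1037 CPM and the vancomycin libraries 2276 to 2606 CPM. The exact two-sided permutation test over 3 against 3 samples cannot give a p below 0.1, so this design could not pass 0.05 for a single sum. The 80 cytosolic ribosomal protein genes took 3.29% to 3.51% in the control libraries and 2.29% to 2.82% with iohexol. With vancomycin they took 5.22% to 6.06%, and with cisplatin 3.44% to 3.60%, which overlapped the controls. The other processed pseudogenes with 100 counts or more took 0.225% to 0.227% in the controls and 0.213% to 0.227% with iohexol. Their share was 0.240% to 0.249% with cisplatin, and it too was highest with vancomycin at 0.308% to 0.336%. These comparisons also turned with the scaling. On the TMM scale the ribosomal protein genes had 33726 to 36492 CPM in the controls and 30524 to 32055 CPM with cisplatin. The other processed pseudogenes had 2304 to 2358 CPM in the controls, 2088 to 2201 CPM with iohexol and 2133 to 2221 CPM with cisplatin. Each of these drug ranges lay below the controls, while vancomycin remained highest in both lists. Set against each other, the pseudogenes had 3.79 to 3.98 counts per 100 counts of ribosomal protein genes in all 12 libraries.

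**Figure D1:**
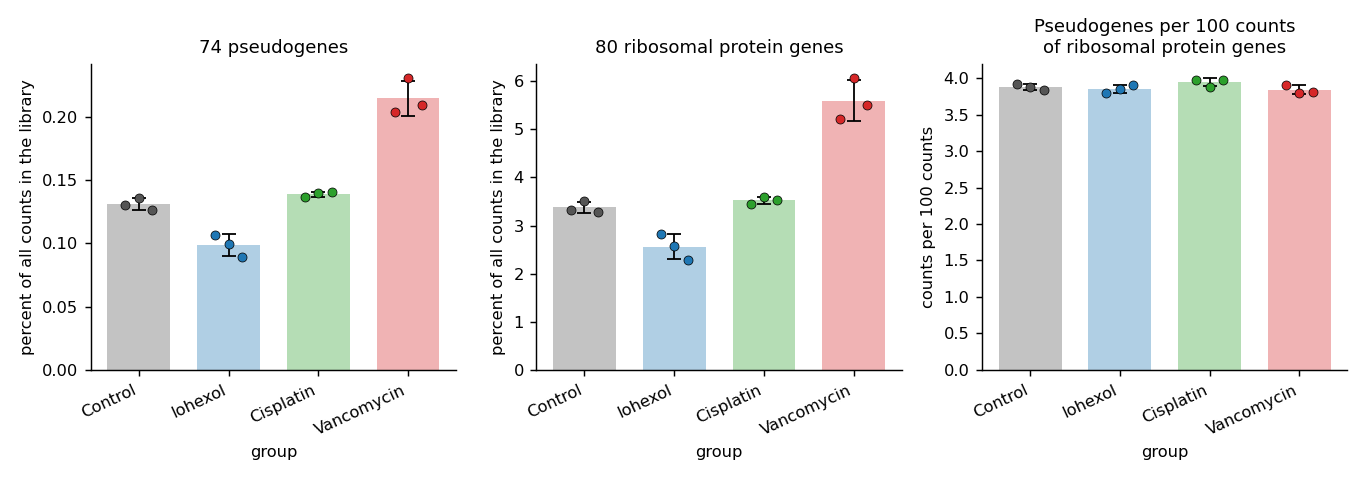
Percent of all counts held by the 74 pseudogenes (left) and by the 80 ribosomal protein genes (middle), and counts of pseudogenes per 100 counts of ribosomal protein genes (right), by group. Bars are means of 3 libraries, error bars SD and points single libraries; both shares were highest with vancomycin, while the ratio stayed between 3.79 and 3.98.

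The counts were very unequal among the 74. Totals over the 12 libraries ran from 102 to 44057 with a median of 767.5. RPL9P9 alone held 15.8% of them, and the 6 most counted pseudogenes (RPL9P9, RPS2P5, RPL7P1, RPS28P7, RPL7P9 and RPL10P16) held 49.2%. Just inside the threshold were RPS26P21 (107 counts), RPL7AP10 (103) and RPS26P3 (102), and just outside it RPS2P32 (97), RPL22P24 (94) and RPLP1P6 (92). Per kilobase of annotated exon, the control level had a median of 4.66 CPM in the pseudogenes and of 169 CPM in the parents. In 6 pseudogenes the level per kilobase was above that of the parent, among them RPS28P7 with 306 against 70.7 CPM per kilobase for RPS28 and RPL9P9 with 332 against 99.5 for RPL9. The exon length of a parent covers all its annotated isoforms, so the per-kilobase level of a parent is a low estimate. In the 3 control samples together, 71 of the 74 had at least 25 counts, and the exceptions were RPS10P3, RPL35P1 and RPLP0P2.

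Iohexol lowered most of the copies that it changed. Of 65 pseudogenes tested with edgeR's quasi-likelihood test, 15 had an adjusted p under 0.05 and were lower, against 9.77% of all genes tested, and 1 was higher, against 11.2%. Among the 78 ribosomal protein genes tested, 60 were lower and 1 was higher. The median log2 fold change was -0.40 over the pseudogenes, -0.45 over the ribosomal protein genes and 0.01 over all genes tested. Among the called copies, those that also changed by more than 1 on the log2 scale in either direction were counted as differentially expressed genes (DEGs). They were 1 pseudogene up (background 4.02%) and 1 down (background 1.25%). Scaled by library size only, the calls were 10 lower and 2 higher. The fit of all 12 samples gave 23 lower, and no filter 24. Leaving out control sample 2 left 8 lower, and leaving out iohexol sample 3 gave 3 higher.

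RPL9P9, the most counted copy, had 222, 244 and 247 CPM in the control samples and 181, 173 and 144 CPM in the iohexol samples. The iohexol samples all lay below the controls, and the log2 fold change was -0.50 (SE 0.10, adjusted p = 0.00461). Its parent RPL9, a protein of the large subunit, changed by -0.42 (SE 0.09, adjusted p = 0.00598). RPL7P9 (-0.48), RPL6P27 (-0.54), RPL10P9 (-0.63) and RPL10P16 (-0.74) were lower as well without overlap of the samples, and their parents RPL7, RPL6 and RPL10 changed by -0.52, -0.50 and -0.60 on the same scale. In RPL10P16, the control samples had 95.3, 79.6 and 66.4 CPM and the iohexol samples 47.7, 43.9 and 50.6 CPM. RPL10AP6, chosen after its values were seen, was the copy that counted as a down-regulated DEG, at -1.40 (SE 0.32, adjusted p = 0.00846) beside -0.48 for RPL10A. It had 0.691 to 0.895 CPM with iohexol and 1.81 to 2.38 CPM in the controls. It lies inside PTPRG on the opposite strand, which changed by -0.34 (adjusted p = 0.0212).

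RPL12P14 was the exception that rose with iohexol. It had 1.96, 1.69 and 1.84 CPM in the control samples and 3.80, 3.77 and 4.21 CPM with iohexol. The groups did not overlap, and the log2 fold change was 1.12 (SE 0.22, adjusted p = 0.00423). RPL12, which belongs to the base of the ribosomal stalk, fell by 0.36 on the log2 scale (SE 0.09, adjusted p = 0.0180), from 761 to 814 CPM in the controls to 534 to 668 CPM. RPL12 did not pass the test without control sample 2 (-0.35, adjusted p = 0.0792). RPL12P14 was 0.233% ± 0.0224 of the summed counts of copy and parent in the controls and 0.653% ± 0.114 with iohexol (SD, n = 3). This ratio needs no scaling between libraries, and the exact two-sided permutation test gave p = 0.1, the smallest that 3 against 3 samples allow. RPL12P14 overlapped no other annotated gene.

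With cisplatin, calls among the copies were split between both directions. Of 69 tested, 12 were higher (background 29.2%) and 9 lower (background 30.6%), and 4 counted as up-regulated DEGs (background 7.62%) and 1 as a down-regulated DEG (background 8.72%). The median log2 fold change over the copies was -0.10 by TMM factors and 0.12 by library size only, a scaling that moved the median of all genes tested by 0.22. By library size only the calls were 16 higher and 4 lower. Leaving out cisplatin sample 2 left 7 higher, and leaving out cisplatin sample 1 or 3 left 5 lower. Of the 78 ribosomal protein genes tested, 10 were higher and 31 lower. Of the 444 other processed pseudogenes tested, 82 were higher and 62 lower.

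RPL13AP20 had the largest rise with cisplatin among the copies tested. The control samples had 4.50, 3.26 and 3.42 CPM, the iohexol samples 3.87, 2.30 and 2.20 CPM, the cisplatin samples 15.9, 14.9 and 14.8 CPM, and the vancomycin samples 1.44, 1.42 and 1.36 CPM. The cisplatin samples thus lay above and the vancomycin samples below every control, while the iohexol samples overlapped them. The log2 fold change was 2.03 (SE 0.15, adjusted p = 3.01e-09) with cisplatin and -1.44 (SE 0.28, adjusted p = 0.000121) with vancomycin. RPL13A, a large-subunit protein known also for a role in translational silencing of inflammatory mRNAs, moved the other way, by -0.26 (adjusted p = 0.000506) and by 1.14 (adjusted p = 7.36e-11). With cisplatin RPL13A did not pass the test by library size only (-0.04, adjusted p = 0.503). Of the exonic bases of RPL13A, 17.3% overlap other genes on the same strand, so its count is uncertain. RPL13AP20 made up 0.417% ± 0.103 of the summed counts of copy and parent in the controls, 1.99% ± 0.124 with cisplatin and 0.0691% ± 0.00686 with vancomycin (SD, n = 3), each with an exact permutation p = 0.1. Of the other copies of RPL13A, neither RPL13AP5 (-0.10, adjusted p = 0.478) nor RPL13AP25 (-0.95, adjusted p = 0.0929, chosen after its values were seen) passed the test with cisplatin. RPL13AP20 overlapped no other annotated gene, and 26.8% of its 50-base windows occurred in another gene.

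RPL12P14 rose further with cisplatin than with iohexol. The cisplatin samples had 7.33, 6.89 and 6.91 CPM, and the log2 fold change against the controls was 1.94 (SE 0.19, adjusted p = 1.34e-07) beside -0.12 (SE 0.05, adjusted p = 0.055) for RPL12. In the fit of all 12 samples, iohexol minus cisplatin was -0.84 (SE 0.18, adjusted p = 0.000485). Its share of the summed counts of copy and parent was 0.969% ± 0.0755 (SD, n = 3). With vancomycin, at 1.19, 1.35 and 1.05 CPM, it was below every control, but the change of -0.66 did not pass the test (adjusted p = 0.0999).

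**Figure D2:**
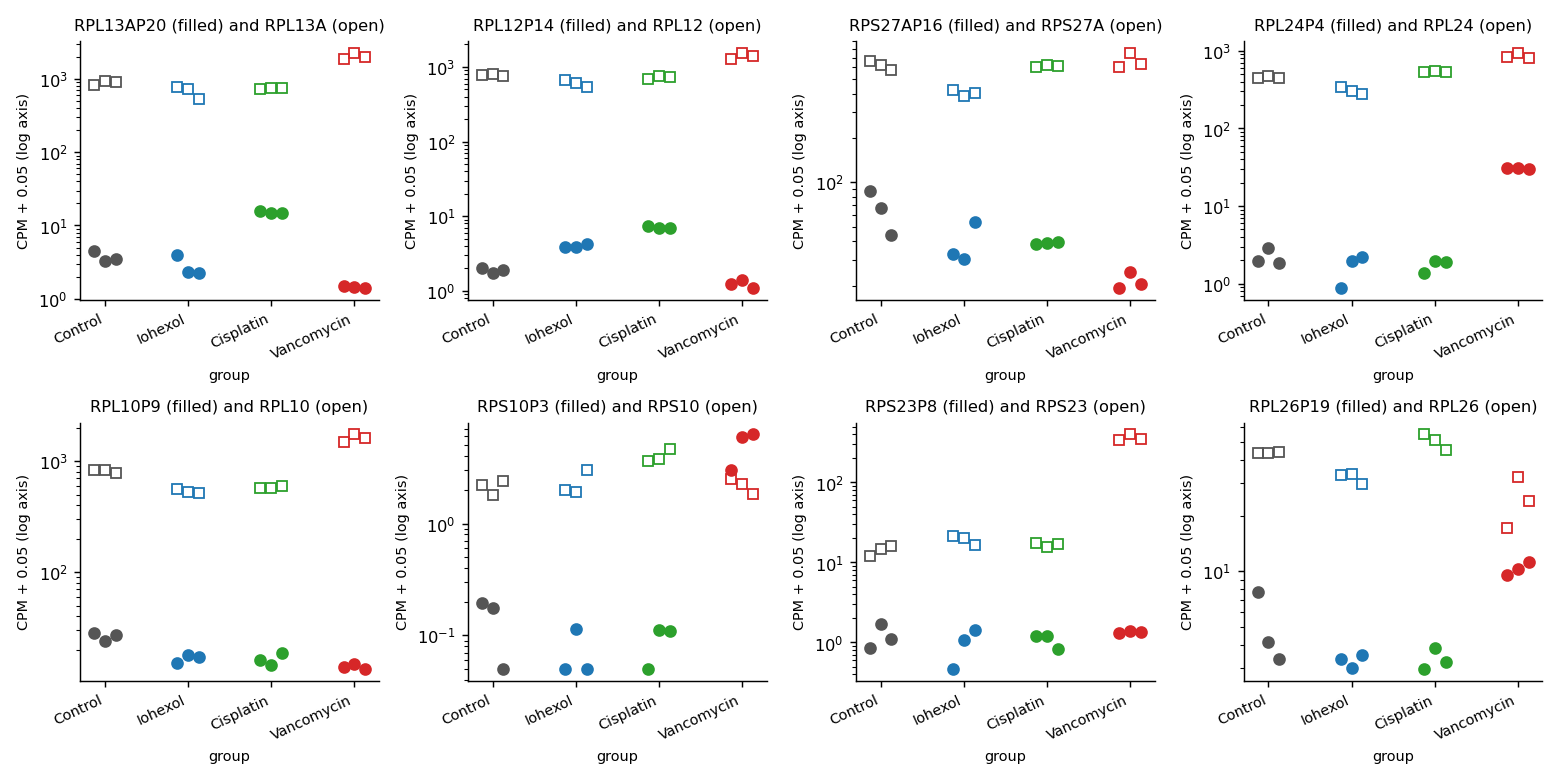
CPM (plus 0.05, logarithmic axis) of 8 pseudogenes (filled circles) and of their parents (open squares) in each of the 12 libraries, by group. RPL13AP20 and RPL12P14 were above every control with cisplatin while RPL13A and RPL12 were below, and RPL24P4 and RPS10P3 were above every control with vancomycin.

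Smaller rises with cisplatin were seen in RPL39P3 (0.53, adjusted p = 0.000673), RPL23AP7 (0.66, adjusted p = 0.000675) and RPL32P3 (0.43, adjusted p = 0.00249). RPL39P3 is identical to RPL39 over all of its 156 bases, and RPL39 itself changed by 0.02 (adjusted p = 0.878). RPL23AP7 and RPL32P3 are annotated as transcribed pseudogenes. RPL23A rose by 0.36 (adjusted p = 0.00583), while RPL32 changed by -0.03 (adjusted p = 0.658). Under DESeq2, RPL23A did not pass the test (0.37, adjusted p = 0.0547). RPL32P3 had 0.0431% of its 50-base windows elsewhere and overlaps an exon of the pseudogene AL449212.1 on the opposite strand, which changed by 0.45 (adjusted p = 0.0210) with cisplatin and by -0.89 (adjusted p = 0.00530) with vancomycin. Its biotype is unprocessed, as is that of RPL23AP82, and both passed the rule because that word contains the one searched for. Of the 12 tested members with a transcribed biotype, 7 were higher and 2 lower with cisplatin, against the 29.2% and 30.6% of all genes. With vancomycin 3 were higher and 4 lower of 11 tested, against 29.0% and 28.8% of all genes, with a median log2 fold change of -0.20.

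Among the copies that fell, RPL3P4 followed its parent. It had 30.6, 31.0 and 25.3 CPM in the controls and 9.33, 14.7 and 12.2 CPM with cisplatin, a log2 fold change of -1.26 (SE 0.14, adjusted p = 5.60e-07). RPL3, which lies close to the peptidyl transferase centre, changed by -1.15 (SE 0.07, adjusted p = 9.58e-11). RPL10P16 (-0.83) and RPL10P9 (-0.68) were lower beside RPL10 (-0.50), and RPL14P1 (-0.43) beside RPL14 (-0.28). RPL14P1 did not pass the test with cisplatin sample 1 or 3 or control sample 2 left out, nor by library size only. By library size only, RPL14 did not pass it either (-0.06, adjusted p = 0.359). RPS27AP16 was lower at -0.77 (SE 0.16, adjusted p = 0.000465), whereas RPS27A, which encodes a fusion of ubiquitin with a small-subunit protein, changed by -0.02 (adjusted p = 0.766).

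Copy and parent were both past the test but in opposite directions in 4 pairs with cisplatin. Besides RPL13AP20 these were RPL13P5 (0.45 beside -0.18 for RPL13), RPL4P6 (0.96 beside -0.35 for RPL4) and RPS20P22 (1.21 beside -0.21 for RPS20), which were chosen after their values were seen. RPL4P6 lies inside MRTFA and RPS20P22 inside FGFR1, both on the strand of the surrounding gene, and these genes changed by -0.53 and -0.76. RPL13P5 overlaps exons of DSTNP2 and LRRC23 on the same strand, which changed by -0.02 and -0.87. It also overlaps an exon of SPSB2 on the opposite strand, which changed by 0.30. All 4 pairs were among copies with under 50% of their 50-base windows in another gene. Scaling by library size only moved the median of all genes tested with cisplatin by 0.22. RPL13 and RPS20 fell by no more than that shift, so their direction is uncertain. RPL13A did not pass the test under that scaling (-0.04, adjusted p = 0.503).

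Vancomycin raised most of the copies. Of 69 tested, 41 were higher, against 29.0% of all genes tested, and 8 were lower, against 28.8%. DEGs were 27 up (background 10.8%) and 4 down (background 7.65%). The threshold of 100 counts included the vancomycin libraries, so copies that are high there could enter the list through them. For example, RPS10P3, RPLP0P2 and RPL35P1 had 4, 14 and 24 counts in the controls. The calls beside the background are therefore a description. The median log2 fold change was 0.75 over the copies and 0.81 over the 78 ribosomal protein genes tested, of which 64 were higher and 1 was lower. Over the 432 other processed pseudogenes tested, with 100 counts or more, the median was 0.00, with 97 higher and 90 lower. The counts with vancomycin moved by less than 1.5 times under every alternative tried, including each left-out sample.

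**Figure D3:**
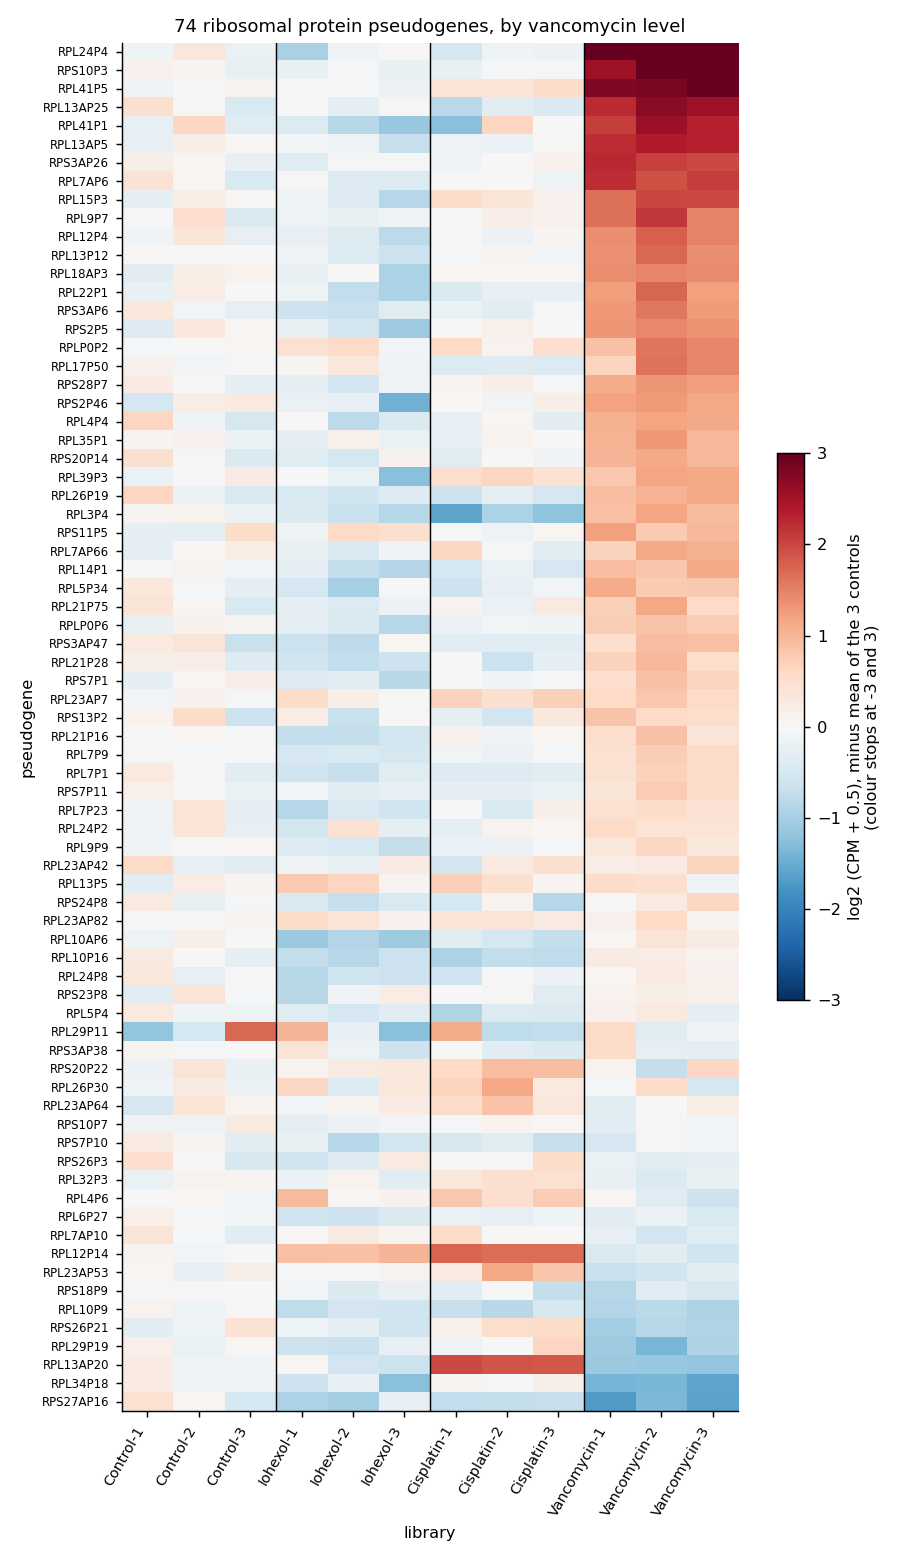
Level of each of the 74 pseudogenes (rows) in each of the 12 libraries (columns), as log2 of CPM plus 0.5 minus the mean of the 3 control libraries, with rows ordered by the vancomycin mean and colours stopped at -3 and 3. Most rows were above the controls in the vancomycin libraries, while RPL12P14 and RPL13AP20 stood out in the cisplatin libraries and RPL29P11 varied within groups.

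Many copies rose further than their parents, but others did not. Over the 69 tested, the median difference between copy and parent was 0.23. It was -0.35 in the copies with under 50% of their 50-base windows in another gene. RPL24P4, RPL13AP5, RPL15P3, RPS3AP26 and RPL41P5 were named for small p-values with vancomycin, so they are not typical of the list. RPL24P4 had 1.89, 2.82 and 1.78 CPM in the control samples and 31.3, 31.2 and 30.4 CPM with vancomycin, which corresponds to 26 to 45 counts and 462 to 500 counts. The iohexol and cisplatin samples had 0.829 to 2.14 CPM and overlapped the controls. The log2 fold change with vancomycin was 3.78 (SE 0.17, adjusted p = 5.00e-15). RPL24, a protein at the bridge between the subunits, changed by 0.88 (SE 0.08, adjusted p = 3.78e-09). The other copies of RPL24, chosen after their values were seen, did not pass the test with vancomycin, with RPL24P8 at 0.11 (adjusted p = 0.636) and RPL24P2 at 0.59 (adjusted p = 0.192). As a share of the summed counts of copy and parent, RPL24P4 rose from 0.471% ± 0.108 to 3.48% ± 0.221 (SD, n = 3, exact permutation p = 0.1).

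RPL13AP5 rose from 16.4, 22.5 and 19.8 CPM to 91.3, 104 and 100.2 CPM, a log2 fold change of 2.28 (SE 0.11, adjusted p = 4.42e-14) beside 1.14 for RPL13A. RPL15P3 rose from 18.2, 25.9 and 22.4 CPM to 69.7, 88.9 and 87.8 CPM, at 1.84 (SE 0.12, adjusted p = 9.36e-12) beside 0.91 for RPL15. RPS3AP26 rose from 5.37, 4.89 and 3.95 CPM to 24.6, 20.9 and 20.02 CPM, at 2.17 (SE 0.16, adjusted p = 3.66e-11) beside 0.67 for RPS3A. In these 3 copies 79.4%, 82.2% and 72.4% of the 50-base windows occurred in another gene. RPS3AP26 lies in an intron of BAIAP2L1 on the same strand, and BAIAP2L1 changed by 0.05 (adjusted p = 0.645).

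RPL41P5, whose 78 bases are all found in RPL41, the smallest ribosomal protein gene, rose from 0.798, 0.878 and 0.987 CPM to 9.07, 9.39 and 12.3 CPM. The log2 fold change was 3.47 (SE 0.24, adjusted p = 1.81e-11) beside 1.78 (SE 0.09) for RPL41. RPS28P7 rose from 76.1, 64.1 and 52.8 CPM to 139, 161 and 152 CPM, at 1.19 (SE 0.11, adjusted p = 2.25e-09) beside 0.68 (SE 0.11) for RPS28, although both copies are identical to their parents over their whole length. Among the other most counted copies, RPL9P9 (0.40), RPL7P1 (0.51), RPL7P9 (0.56) and RPS2P5 (1.31) were higher, and RPL10P16 at 0.13 did not pass the test (adjusted p = 0.313).

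RPS10P3 had the largest log2 fold change of the copies and was chosen after its values were seen. It had 2, 2 and 0 counts in the control samples, 0, 1 and 0 with iohexol, 0, 1 and 1 with cisplatin, and 47, 87 and 101 with vancomycin. The vancomycin libraries thus gave 235 of its 242 counts, so this copy entered the list through 1 group. The ratio of vancomycin to control, from the summed counts and totals, was 51.7 (95% exact interval 19.9 to 191, counting error only). The interval does not allow for that selection. Its parent RPS10, at 2.18, 1.76 and 2.37 CPM in the controls and 2.44, 2.23 and 1.79 CPM with vancomycin, changed by -0.01 (adjusted p = 0.988). RPS10 had 494 counts over the 12 libraries, and 39.4% of its exonic bases are shared on the same strand with the readthrough gene RPS10-NUDT3, so its count is uncertain. The RPS10 family accordingly showed the largest shift of all families when pseudogene counts were added to those of the parent, 0.70 with vancomycin.

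RPS27AP16 was lower with vancomycin, with 87.4, 66.8 and 44.1 CPM in the controls and 19.3, 24.9 and 20.6 CPM with the drug. The log2 fold change was -1.66 (SE 0.17, adjusted p = 9.25e-09), while RPS27A changed by 0.05 (adjusted p = 0.691). With iohexol the samples at 32.8, 30.4 and 53.9 CPM overlapped the controls, and the change was -0.74 (adjusted p = 0.0472). This change did not pass the test under DESeq2, limma-voom, the replicate block or library size only (adjusted p = 0.0699). It also did not pass with control sample 1 (-0.49) or 2, or iohexol sample 1 or 2, left out. Vancomycin minus cisplatin was -0.85 (SE 0.21, adjusted p = 0.00131) and vancomycin minus iohexol -0.86 (SE 0.21, adjusted p = 0.00159). RPS27AP16 was 9.47% ± 2.26 of the summed counts of copy and parent in the controls and 3.16% ± 0.0515 with vancomycin (SD, n = 3, exact permutation p = 0.1).

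RPL10P9 had 28.5, 23.8 and 27.0 CPM in the controls and 14.1, 14.7 and 13.4 CPM with vancomycin, a log2 fold change of -0.95 (SE 0.12, adjusted p = 4.83e-07). RPL10, a late-joining protein of the large subunit, rose by 0.94 (SE 0.08, adjusted p = 1.27e-09), from 791 to 840 CPM to 1490 to 1745 CPM. Of the exonic bases of RPL10, 52.7% overlap other genes on the opposite strand, so its count is uncertain. RPL10P9 and RPL10P16 each differ from RPL10 at 7 aligned positions. RPL10P9 was also lower with iohexol and cisplatin, and vancomycin minus cisplatin did not pass the test (-0.23, adjusted p = 0.101). RPL34P18 fell from 4.35, 3.20 and 3.29 CPM to 1.06, 1.08 and 0.862 CPM, at -1.88 (SE 0.31, adjusted p = 1.27e-05) beside 0.54 for RPL34. RPL29P19, with 36 counts in the controls and 5 with vancomycin, changed by -2.87 (SE 0.69, adjusted p = 0.000963) beside 0.92 for RPL29. The ratio of control to vancomycin for RPL29P19 was 8.18 (95% exact interval 3.20 to 26.7, counting error only).

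Copy and parent moved in opposite directions, both past the test, in 8 pairs with vancomycin. In 7 of them the copy fell and the parent rose, namely in RPL6P27, RPL32P3, RPL10P9, RPL13AP20, RPL34P18, RPL29P19 and, chosen after its values were seen, RPS18P9. RPL32P3 (-0.34, adjusted p = 0.0281) did not pass the test with control sample 2 or 3 or vancomycin sample 2 left out. RPL6, the parent of RPL6P27, did not pass it by library size only (adjusted p = 0.0796) or without control sample 3 or vancomycin sample 2. RPL26P19 was the reverse, and was chosen after its values were seen. It had 7.69, 4.08 and 3.29 CPM in the controls and 9.45, 10.2 and 11.1 CPM with vancomycin, at 1.00 (SE 0.22, adjusted p = 0.000483). RPL26, a protein of the large subunit, had 43.5 to 43.9 CPM in the controls and 17.1, 32.1 and 24.0 CPM with vancomycin, at -0.89 (SE 0.15, adjusted p = 1.43e-05). RPL26 had 7057 counts over the 12 libraries. Of its exonic bases, 14.3% overlap AC135178.2 on the same strand, so its count is uncertain. RPS23, a protein of the decoding centre, rose from 12.1 to 16.1 CPM to 343 to 399 CPM (4.62, adjusted p = 1.60e-19). It had 19417 counts over the 12 libraries. Of its exonic bases, 8.90% overlap ATG10 on the opposite strand, so its count is uncertain as well. RPS23P8, likewise chosen afterwards, has 66.5% of its 50-base windows in another gene. RPS23P8 stayed at 1.25 to 1.35 CPM with vancomycin beside 0.798 to 1.63 CPM in the controls (0.11, adjusted p = 0.826).

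**Figure D4:**
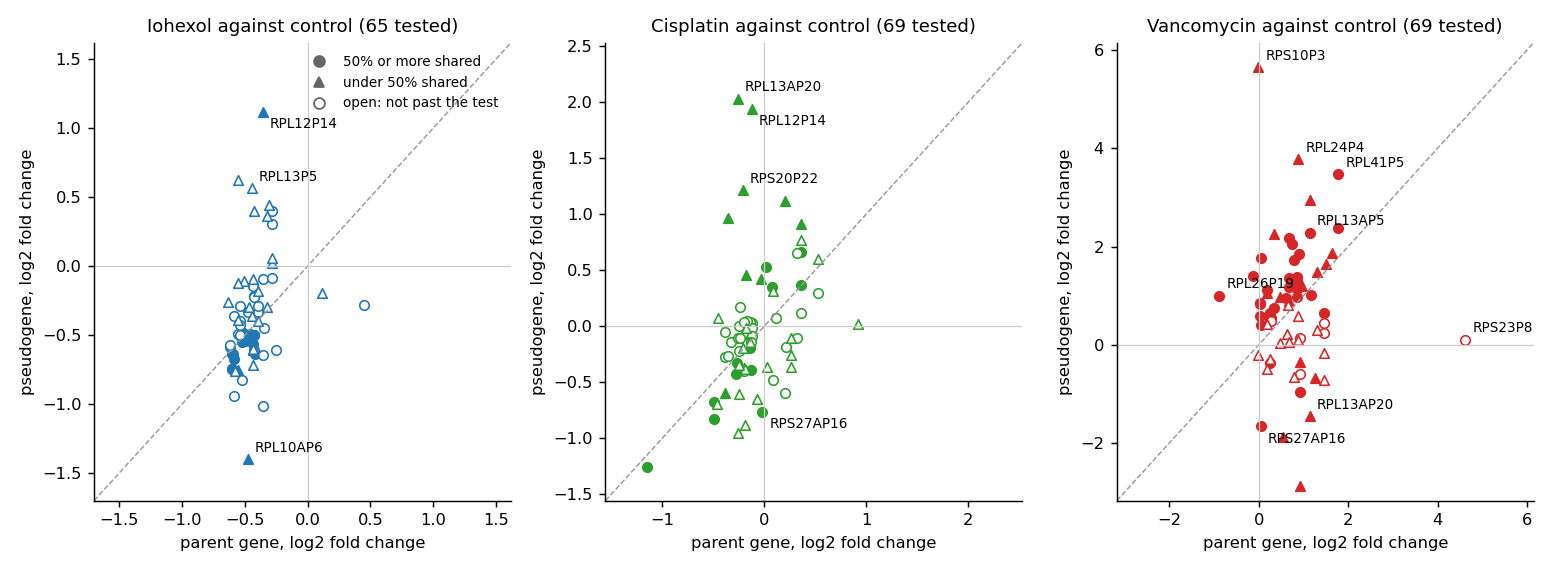
Log2 fold change of each tested pseudogene (vertical axis) against that of its parent (horizontal axis) for the 3 drugs, with circles for copies that share 50% or more of their 50-base windows with another gene, triangles for the rest, filled symbols for copies past the test and the dashed line at equality. With iohexol the points gather near the line at negative values, and with vancomycin they spread from -2.87 to 5.65 on the vertical axis. The highest point, RPS10P3, entered the list only through the vancomycin libraries.

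Across the tested copies, the log2 fold change of the copy and that of its parent had a Pearson r of 0.28 with iohexol (65 copies), 0.35 with cisplatin (69) and -0.00 with vancomycin (69), and a Spearman rho of 0.43, 0.41 and 0.04. These values are descriptive, since copies share libraries, parents and reads. The difference between copy and parent was within 0.5 in 54 copies with iohexol, 51 with cisplatin and 25 with vancomycin, and over 1 in 3, 4 and 25. With vancomycin the differences farthest from 0 were 5.65 in RPS10P3 and -4.51 in RPS23P8. RPS10P3 entered the list only through the vancomycin libraries, which gave 235 of its 242 counts. Its value is therefore shaped by that selection, and it is included in the correlations and counts above.

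Copies that share more sequence lay closer to their parents with iohexol and cisplatin. Of the 74, 40 had at least 50% of their 50-base windows in another gene and 34 had fewer. In the first set, the median log2 fold change was -0.50 with iohexol, -0.10 with cisplatin and 0.96 with vancomycin. In the second set it was -0.23, -0.11 and 0.26. With iohexol, the difference from the parent was over 1 in none of the 39 tested copies of the first set, and with cisplatin in none of 40, but with vancomycin in 13 of 39. In the second set it was over 1 in 3 of 26, 4 of 29 and 12 of 30. With vancomycin the median difference from the parent was 0.39 in the first set and -0.35 in the second. RPS3AP38, a tested copy with no shared window, had 1.31, 1.13 and 1.18 CPM in the controls and 2.00, 0.945 and 0.924 CPM with vancomycin. Its samples overlapped the controls with every drug, and with vancomycin it changed by 0.06 (adjusted p = 0.900) beside 0.67 for RPS3A. These splits were made with the results known and were not tested.

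**Figure D5:**
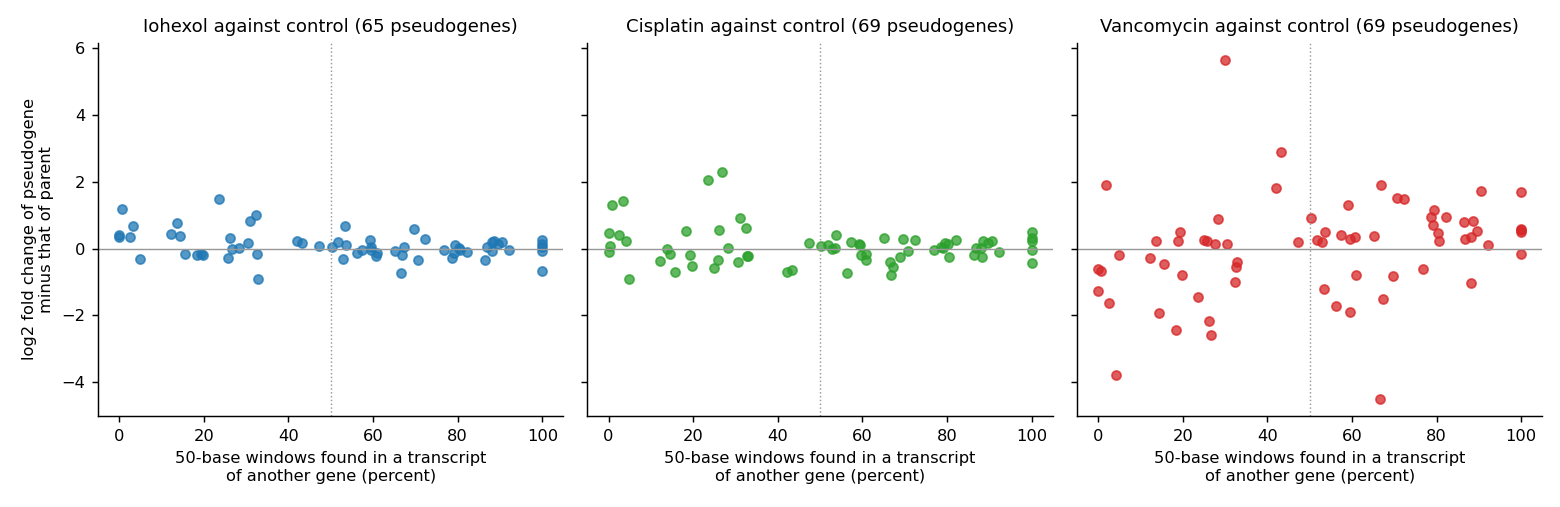
Difference between the log2 fold change of a pseudogene and that of its parent (vertical axis) against the percent of its 50-base windows found in a transcript of another gene (horizontal axis), 1 point for each tested pseudogene and 1 panel for each drug. Right of the dotted line at 50%, the points stay within 1 of the parent with iohexol and cisplatin, and 13 of 39 lie beyond 1 with vancomycin.

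The drugs were set against each other in the fit of all 12 samples, in which all 74 copies passed the filter. Iohexol minus cisplatin was past the test in 23 copies (background 54.0%), of which 1 was positive and 22 negative. Vancomycin minus iohexol was past it in 53 (background 56.6%), 46 positive and 7 negative, and vancomycin minus cisplatin in 56 (background 64.7%), 46 positive and 10 negative. For RPL10P16, iohexol minus cisplatin was 0.06 (SE 0.11, adjusted p = 0.658), vancomycin minus iohexol 0.94 (adjusted p = 4.20e-07) and vancomycin minus cisplatin 1.00 (adjusted p = 1.09e-07).

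Reads of a copy can also overlap with those of a gene around it. Of the 74 copies, 43 overlapped another annotated gene, 37 lay wholly inside one and 16 of these on the same strand, and 31 overlapped none. Where a copy and the protein-coding gene around it on the same strand were both tested, both passed the test in 1 of 9 pairs with iohexol, 2 of 10 with cisplatin and 2 of 8 with vancomycin, with the same direction in 0, 0 and 2. On the opposite strand, both passed in 2 of 14, 1 of 15 and 5 of 14 pairs, with the same direction in 2, 1 and 2. RPS2P5 and RPL7P1 lie inside TAOK3 and CSF1R on the opposite strand, and since the strand setting of the counting is not given, reads of the 2 strands cannot be told apart. RPL29P11, chosen after its values were seen, varied widely within groups, at 0.653, 1.32 and 8.16 CPM in the 3 controls, and it passed the test with no drug.

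Adding the counts of all pseudogenes of a family to those of the parent changed the picture of the parent little. The log2 ratio of the sum differed from that of the parent alone by under 0.1 in 39 of 41 families with iohexol, 40 with cisplatin and 34 with vancomycin. After RPS10, the RPL26 family moved most with vancomycin, from -0.84 for the parent to -0.49 for the sum, followed by RPL22, whose value turned from -0.08 for the parent to 0.13 for the sum. In the controls the pseudogenes made up 68.6% of the RPS10 family, 32.8% of RPL9, 30.04% of RPS28 and 12.4% of RPL26.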

How the data were processed

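RNA of 12 HK-2 samples was sequenced. The authors deposited 1 table of raw read counts per gene, with gene names, positions, lengths and biotypes, and no other unit was used. The submitters' processing notes name CASAVA 1.8, fastp, HISAT2 2.0.5, featureCounts 1.5.0-p3 and DESeq2 1.20.0. Genome build, strand setting and handling of reads with several matches are not given in the sources used here, so counts of near-identical, overlapping or antisense genes are uncertain. All 58735 gene IDs and spans match GENCODE 29 on GRCh38, which supplied sequences and overlaps.

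Groups were taken from the sample labels. Each drug was compared with the 3 controls in a fit of those 6 samples by edgeR 4.0.16 (R 4.3.3) with TMM factors, filterByExpr (minimum count 10, minimum total 15), the quasi-likelihood test and Benjamini-Hochberg adjustment over all genes tested. SE was derived from the F statistic. CPM used TMM-scaled library sizes, and per-kilobase levels the deposited gene lengths. The share of a copy in the summed counts of copy and parent was compared by an exact permutation test. Sequences were compared by 50-base and 100-base windows and by blastn 2.17.0. Figures were drawn with matplotlib 3.10.9. The steps were tested on simulated counts. Alternatives were DESeq2 1.42.0, limma 3.58.1 (voom), other scalings and filters, thresholds of 50 and 200 counts, a fit of all samples, a replicate block and each left-out sample.

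Total counts were 14057282 to 18177109 per library, which sets a floor of 3 counts at 0.165 to 0.213 CPM and covers counting error only. The named copies were the 6 most counted, for each drug the 5 higher and 5 lower with the smallest p among non-overlapping calls, the 3 on each side of the count threshold and the 3 least shared, with their parents and surrounding genes. Members and lists were chosen with earlier results of these data known.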

Additional observations from a re-analysis of the deposited data

How the results depend on the processing

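Against the values reported, scaling by library size only turned the sign with cisplatin of the median over the copies (0.12), of RPL6 (0.0830), RPL6P27 (0.0281), RPL7 (0.0877) and RPL9 (0.0472). It also gave 2 higher copies with iohexol and 4 lower with cisplatin. A count threshold of 50 gave 2 higher with iohexol. No filter gave 24 lower with iohexol, and a fit of all 12 samples 23. DEGs with cisplatin numbered 3 with at least 10 counts in every sample and 3 at a threshold of 200. Copies sharing under 50% of windows, a split added after seeing the data, had medians of -0.23 with iohexol and 0.26 with vancomycin. Without RPL9P9 the copies held 0.108% of counts in the controls, 0.0814% with iohexol, 0.115% with cisplatin and 0.186% with vancomycin. The causes were not tested. With 1 sample left out, the higher and lower calls ranged from 1 to 3 and 8 to 17 with iohexol, 7 to 12 and 5 to 13 with cisplatin, and 39 to 43 and 7 to 8 with vancomycin, and DEGs from 1 to 3, 3 to 7 and 29 to 33. The count of DEGs with iohexol was 1 without control sample 2, and with cisplatin 3 without control sample 1. Of the fold changes of single genes, 1078 kept direction and side of the threshold, 82 lost the call and 4 turned sign.

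With the replicate block, the higher and lower calls were 1 and 11 with iohexol, 12 and 11 with cisplatin, and 41 and 8 with vancomycin, and DEGs numbered 2, 5 and 31. Deviations from the group means correlated at -0.0209 on average in the 18 pairs of same-numbered samples, beside 0.0107 in the 36 others, so the numbers were treated as names only. DESeq2 gave 1 higher and 16 lower, 10 and 6, and 40 and 8. Depth limits the copies near 100 counts, of which RPL7AP10 was tested with no drug.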

Other observations

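The 461 ribosomal protein pseudogenes with 1 to 99 counts, which entered no comparison, summed to 28.1 to 30.4 CPM in the control libraries, 29.02 to 44.1 CPM with iohexol, 36.3 to 41.7 CPM with cisplatin and 33.0 to 33.9 CPM with vancomycin on the TMM scale. On this scale the cisplatin and vancomycin libraries lay above the controls and the iohexol libraries overlapped them. By library size only, the sums were 27.4 to 29.2, 29.9 to 45.1, 40.8 to 46.9 and 29.3 to 30.3 CPM, and each drug's libraries lay above the controls. These sums were not tested.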
